A study of Mus musculus with 5 samples.

Results

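The genes followed here encode histones, the proteins that package DNA into nucleosomes. They were taken by symbol from a gene-level table of RNA abundances: symbols of the H1f, H2ac, H2bc, H2az, H2ax, H2aw, H2bu, H3c, H3f3 and H4c series, H4f16 and both Macroh2a genes. The 5 symbols marked -ps, for pseudogene, were left out. This gave 82 of the 49875 gene IDs of the table. Of these, 64 were counted as replication-dependent (the c-numbered symbols and H1f1 to H1f5) and 17 as variant (all other members). The remaining one, H3f3aos, is an antisense transcript that matched by its name and was listed at no more than 0.07 in any library, so it was left out of both classes. H2aw, H2bu2 and H4f16 fall in the variant class by their symbols, a placement that is uncertain because they are close to the canonical histones.

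Replication-dependent histone genes are transcribed in S phase, when new DNA needs new nucleosomes. They lack introns, lie in clusters, and their mRNAs end in a conserved stem-loop in place of a poly(A) tail. The stem-loop is bound by SLBP, which serves their processing, translation and decay. Variant histones such as H2A.Z, H3.3, H1.0 and macroH2A are made outside S phase too, from single genes with introns or ordinary poly(A) tails, and they are exchanged into chromatin at promoters, genes or silent regions. Some replication-dependent genes are also known to give polyadenylated transcripts, and the mRNA of H2ax is known in both forms. The neocortex at mid-gestation holds cycling progenitors together with neurons that have left the cell cycle, so both classes can be expected in it.

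All 5 libraries came from dissociated cortical cells of wild-type mouse embryos at E13.5 (tissue label forebrain); the labels name no treatment. A cytoplasmic lysate was the Input (n = 2), and RNA was precipitated from it with an antibody against eIF4E, the protein that binds the 5′ cap of mRNAs (n = 2), or with control IgG (n = 1). The labels mark the replicates of eIF4E and of Input as biological but give no number of embryos, and p-values rest on how these few libraries spread. The Smart-seq2 protocol primes cDNA from poly(A) tails and keeps no strand, so for mRNAs that end in a stem-loop the values may stand for only part of the transcripts. Values are RSEM abundances, either TPM or FPKM, both corrected for transcript length; the sequencing depth behind them is unknown.

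Summed values per library ranged from 560076 in IgG to 848550 in an Input library, and IgG listed 11825 genes above 0 against 17412 to 18745 in the others. Defining markers of cortical progenitors, intermediate progenitors, newborn neurons and forebrain were all present (7, 3, 5 and 3 genes, each reaching a value of 1). Of 6 erythroid genes, all 6 were lower in eIF4E than in Input; their summed values were 14730 and 16066 in Input, 5224 and 3966 in eIF4E and 2100 in IgG. Summed microglial markers were 47.8 and 54.7 in Input, 18.3 and 17.6 in eIF4E and 21.97 in IgG, where C1qb alone gave 21.85. Of 5 microglial genes, 4 were lower in eIF4E than in Input, against 30.6% of all genes tested. Summed endothelial markers were 65.3 and 67.7 in Input, 28.7 and 31.4 in eIF4E and 2.96 in IgG. Of these 4 genes, only Cldn5 was lower in eIF4E (58.36 and 59.27 in Input, 21.83 and 24.54 in eIF4E). The other 3 did not pass the test described below. Markers of meninges summed to 56.8 and 53.6 in Input, 52.6 and 55.8 in eIF4E and 29.5 in IgG. Those of the ventral forebrain, of which 3 of 4 reached a value of 1, summed to 26.5 and 27 in Input. Their sums were 32.7 and 31.8 in eIF4E and 41.6 in IgG. The part of all these cells in the histone results was not tested.

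The classes differed in where their genes lie and how they are built. In the RefSeq annotation of GRCm38.p6, which held 63 of the 64 replication-dependent symbols, 53 lay on chromosome 13 (21715711 to 23934913) and 10 on chromosome 3 (96219885 to 96270192). The 16 variant genes matched were spread over 9 chromosomes. Annotated gene length had a median of 490 bp for replication-dependent genes, from 360 bp (H2ac14) to 37455 bp (H2bc6). H2ac14 is annotated as a pseudogene and was kept because its symbol carries no -ps. For variant genes the median was 1828 bp, up to 62005 bp for Macroh2a1. Near-identical copies are common in the replication-dependent class, and RSEM divides reads among such copies, which leaves single members less certain than the sum over a family.

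Promoters are shown for the members on which the comparisons below turn. These are the 3 replication-dependent genes with the largest falls in the precipitate (H4c4, H3c11, H1f5), the one that rose (H4c9), H4c18, whose promoter is most like it next to the start, the most abundant variant (H2az1) and the variant that rose (H3f3b). Each line gives the 150 bases before the annotated start, 5′ to 3′ on the gene's strand, from RefSeq (GRCm38.p6). For H3f3b the start used lies inside the annotated gene (116021961 to 116026039) and not at its outer end. Capitals mark CCAAT on either strand (ATTGG where it lies on the other strand) and TATAA on the gene's strand. The windows are chr13:23581418-23581567 (+ strand), chr13:21783398-21783547 (- strand), chr13:21780626-21780775 (- strand), chr13:22041363-22041512 (- strand), chr13:21832198-21832347 (- strand), chr3:137864337-137864486 (+ strand) and chr11:116024505-116024654 (- strand).
H4c4: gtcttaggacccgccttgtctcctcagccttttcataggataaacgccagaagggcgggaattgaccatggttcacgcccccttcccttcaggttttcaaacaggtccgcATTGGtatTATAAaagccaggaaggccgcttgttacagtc
H3c11: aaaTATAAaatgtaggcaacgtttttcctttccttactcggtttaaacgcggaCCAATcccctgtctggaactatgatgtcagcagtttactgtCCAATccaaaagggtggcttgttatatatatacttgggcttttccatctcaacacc
H1f5: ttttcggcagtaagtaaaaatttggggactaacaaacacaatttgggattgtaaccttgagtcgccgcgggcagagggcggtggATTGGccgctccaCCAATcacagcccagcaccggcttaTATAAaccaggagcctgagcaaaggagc
H4c9: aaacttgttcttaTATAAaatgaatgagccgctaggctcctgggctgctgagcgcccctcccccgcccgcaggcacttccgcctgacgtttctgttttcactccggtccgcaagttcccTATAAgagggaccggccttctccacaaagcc
H4c18: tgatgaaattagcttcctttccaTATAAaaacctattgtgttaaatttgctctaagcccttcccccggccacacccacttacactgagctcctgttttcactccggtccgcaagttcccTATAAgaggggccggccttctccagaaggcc
H2az1: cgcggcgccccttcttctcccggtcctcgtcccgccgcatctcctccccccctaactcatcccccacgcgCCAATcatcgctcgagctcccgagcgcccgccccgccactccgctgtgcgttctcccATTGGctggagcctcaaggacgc
H3f3b: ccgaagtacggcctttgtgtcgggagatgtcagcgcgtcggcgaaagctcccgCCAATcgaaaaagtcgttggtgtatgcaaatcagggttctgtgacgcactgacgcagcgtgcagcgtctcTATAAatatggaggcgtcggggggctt

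CCAAT, searched on both strands in the 250 bases before the start, was found in 48 of 58 promoters of replication-dependent genes (82.8%), in 8 of 15 of variant genes and in 33.9% of all 32851 promoters of the table. Every H1, H2A and H2B promoter of the replication-dependent class held it, against 3 of 11 of the H4 genes. TATAA on the gene's strand, in the window from 45 to 16 bases before the start, was found in 19 of 58 replication-dependent and 5 of 15 variant promoters, against 3.89% of all. It stood 32 bases before the start in H4c4 and 28 in H1f5. In H3f3b it stood 27 bases before the start inside the gene, whereas H2az1 held none in the window shown. The octamer ATTTGCAT, on both strands, was found in 7 of 15 H2B and 6 of 17 H2A promoters of the replication-dependent class, in none of its H1, H3 or H4 promoters, in 2 of 15 variant promoters (H2aw and H3f3b) and in 1.6% of all. Matches of different motifs were counted separately, whether or not they overlap, and describe the letters of the windows. Some H2A and H2B genes lie side by side on opposite strands with overlapping windows, such as H2ac13 and H2bc13. One CCAAT or octamer match there can count for both genes, so these promoters are not separate cases. The 58 promoters belong to 57 genes, as H2bc6 entered more than once. The promoters of H4c9 and H4c18 were identical at 47 of the 50 bases before the start, compared position by position without gaps, where the next most similar H4 promoter, that of H4c3, shared 23. Over 250 bases, compared in the same way, H4c9 shared 102 with H4c18 (40.8%) and 86 with H4c3 (34.4%).

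In the cytoplasmic Input, variant mRNAs made up most of the histone signal. In such levels of a bulk lysate, fewer cells of a type and less RNA per cell cannot be told apart. H2az1, one of the genes for H2A.Z, was the highest member, with 4144.08 and 4164.56 in the Input libraries, and it ranked 16 among all genes. H2az2, the other H2A.Z gene, followed at 1950.45 and 2060.5. H3f3b and H3f3a, which encode the same H3.3 protein, stood at 1229.8 and 1233.83 and at 1121.35 and 1122.35. H1f0, the linker histone of quiescent and differentiating cells, H2bu2 and H2ax, the source of the DNA-damage mark gamma-H2AX, came next with means of 940.0, 858.8 and 763.4 (SD 21.3, 38.8 and 4.45, n = 2). The libraries of neighbours in this order did not overlap down to H2ax. H2ac24, the eighth in this order, was the only replication-dependent gene above 100 (634.04 and 760.97), and its Input values overlapped those of H2ax.

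Summed over all 64 members, replication-dependent genes reached 1191.79 and 1374.86 in Input against 11556.88 and 11699.25 for the 17 variant genes. They were 9.35% and 10.5% of the histone sum in Input, 3.91% and 2.76% in eIF4E and 3.2% in IgG. For this total, the Input shares lay above those of every precipitate. Within the H3 family, the replication-dependent share was 7.32% and 8.72% in Input, 0.948% and 0.779% in eIF4E and 2.07% in IgG. Within the H1 family the share went from 13.1% and 14.1% in Input to 12.2% and 12.5% in eIF4E and 7.52% in IgG, and H1f0 was lower in eIF4E as well. Within the H2B family it was 5.4% and 4.87% in Input, 4.52% and 3.73% in eIF4E and 9.82% in IgG, so there IgG stood highest.

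**Figure D1:**
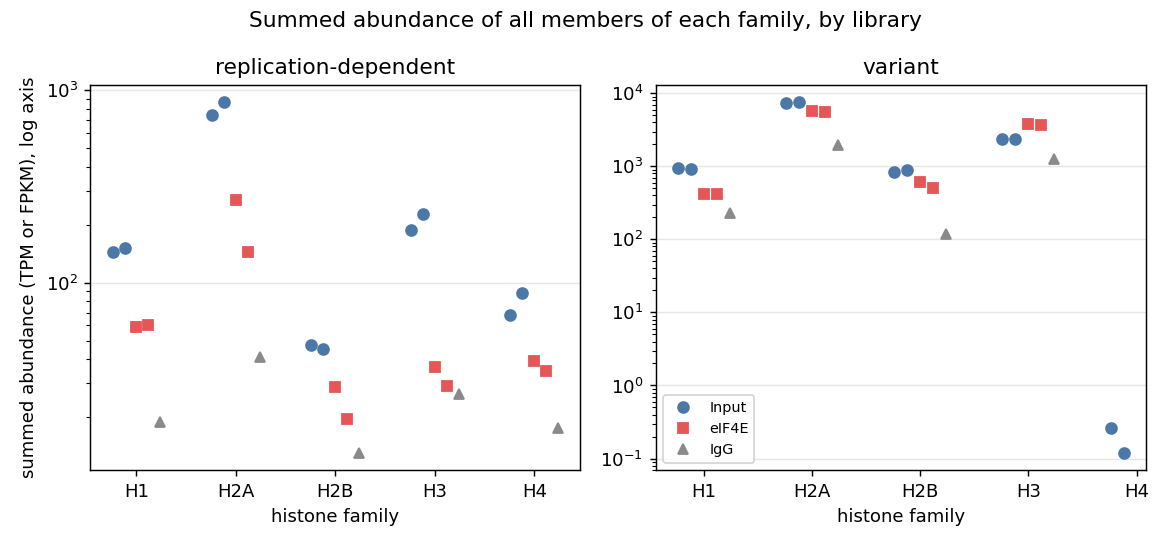
Summed abundance (TPM or FPKM, log axis) of all members of each histone family in each library, replication-dependent genes on the left and variant genes on the right; circles are Input, squares eIF4E and the triangle IgG, and sums of 0 (variant H4 in eIF4E and IgG) are not drawn. In every replication-dependent family both eIF4E sums lie below both Input sums, while the variant H3 sum is higher in eIF4E (3819.78 and 3698.12) than in Input (2367.29 and 2380.69).

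Setting eIF4E against Input shows which histone mRNAs made up more or less of the RNA that came down with the cap-binding protein. Replication-dependent mRNAs were strongly under-represented: of 43 tested, 32 were lower, 1 was higher and 10 did not pass (limma, adjusted p under 0.05). Over all 12769 genes tested, 30.6% were lower and 43.3% higher. The median log2 fold change of the 43 was -1.74, against 0.16 for all genes. Both eIF4E libraries lay below both Input libraries for 37 of the 43, a pattern found for 37.6% of all genes. For 6 of these, which reached 1 only in Input, that order was fixed by the rule for testing given below. They also enter the median. Fold and log2 changes are on the scale of value + 1 throughout, which understates the change of low genes.

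A gene was tested when it reached 1 in at least 2 libraries, and 6 of the 43 did so only in the Input pair, so their difference was bound to be downward. Without these, 27 of 37 were lower and 1 higher. Among the 25 that reached 1 in both eIF4E libraries, 18 were lower and 1 higher. Of the 21 replication-dependent members not tested, the highest values were 2.46 (H4c17, in one eIF4E library), 2.04 (H2bc8), 1.74 (H2ac13) and 1.62 (H2bc14); among the 6 untested variants H1f10 reached 1.27. A value of 1 was reached in no library by 13 replication-dependent and 5 variant members, of which 4 in each class were listed at 0 throughout.

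The linker histones of the replication-dependent class, which bind DNA where it enters and leaves the nucleosome, were all lower among the 4 tested. Among all genes, 30.6% were lower. H1f5 (chromosome 13, 21779832 to 21780625) had values of 47.39 and 55.6 in Input, 7.57 and 4.87 in eIF4E and 11.5 in IgG. The eIF4E libraries were the lowest of all 5, and its level was 0.136 of Input on the scale of value + 1 (log2 -2.88, SE 0.21, limma adjusted p = 3.2e-04). H1f4 and H1f1 fell by 1.97 and 1.82 on the log2 scale. H1f2, the second most abundant replication-dependent gene (23738807 to 23739531), changed least of the 4, from 70.56 and 69.5 in Input to 45.28 and 49.73 in eIF4E (log2 -0.55, SE 0.07, adjusted p = 0.00188), while IgG stood at 5.46. Its eIF4E libraries thus lay close below Input and far above IgG.

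In the family of the core histone H3, all 11 members tested were lower, against 30.6% of all genes. Of these 11, H3c7 had reached 1 only in Input. H3c11 (chromosome 13, 21782915 to 21783397) fell from 40.49 and 67.59 in Input to 4.49 and 3.3 in eIF4E, with 1.62 in IgG (log2 -3.46, SE 0.28, adjusted p = 4.5e-04). H3c3, H3c6, H3c13, H3c10 and H3c2 followed with log2 values of -2.63, -2.51, -2.35, -2.10 and -2.01. H3c7, H3c15, H3c4 and H3c1 lay between -1.87 and -1.59, and H3c8 fell least, to 0.501 of Input on the scale of value + 1. As a sum over the 12 members, H3 stood at 186.9 and 227.41 in Input and at 36.54 and 29.02 in eIF4E, a ratio of 0.158.

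Histone H4, whose genes encode one and the same protein, went both ways. H4c4 (chromosome 13, 23581568 to 23581969) showed the largest fall of all members tested, from 20.61 and 28.07 to 1.43 and 0.67, with 0.3 in IgG (log2 -3.64, SE 0.25, adjusted p = 2.8e-04). H4c1, H4c12, H4c2, H4c18 and H4c8 fell by 2.21, 1.93, 1.86, 1.74 and 0.94 on the log2 scale. H4c9 (22040960 to 22041362) rose instead, from 4.69 and 3.6 in Input to 22.6 and 19.79 in eIF4E, with 2.5 in IgG. Both eIF4E libraries were far above the other 3, and the rise was 4.33-fold on the scale of value + 1 (log2 2.11, SE 0.14, adjusted p = 2.8e-04). H4c11 (0.91 and 1.87 in Input, 2.24 and 1.34 in eIF4E, 0 in IgG) and H4c3 (log2 -0.63, adjusted p = 0.0636) did not pass. Without H4c9, the other 11 H4 genes of the class summed to 63.43 and 84.81 in Input and 16.68 and 15 in eIF4E, a ratio of 0.214. H4c9, H4c17 and H4c18 together summed to 15.22 and 20.73 in Input. In eIF4E these 3 summed to 27.26 and 24.54, a ratio of 1.44, and in IgG to 15.49. Both sums were chosen after the values were seen, and a division of reads among these copies was not tested.

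In the H2A family 5 of 10 members tested were lower (50%) and none higher, against 30.6% and 43.3% of all genes. H2ac24 (chromosome 13, 21833024 to 21833475), by far the most abundant, fell from 634.04 and 760.97 to 217.53 and 120.85, with 38.17 in IgG (log2 -2.09, SE 0.29, adjusted p = 0.00275). Both eIF4E libraries lay below both Input libraries and above IgG. H2ac8, H2ac4, H2ac7 and H2ac20 fell by 2.45, 2.24, 1.90 and 1.43 on the log2 scale. H2ac18, H2ac11, H2ac23 and H2ac19 had negative log2 values between -1.79 and -0.15 and did not pass, with H2ac18 at 6.41 in one eIF4E library and 0.45 in the other. H2ac6 had 1.02 and 0.79 in Input, 1.19 and 1.03 in eIF4E and 0 in IgG (log2 0.15, adjusted p = 0.354), so both eIF4E values lay just above Input, at a level near 1.

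Histone H2B had the smallest median change of the 5 families (log2 -0.69). Of 9 members tested, 6 were lower, but 4 of these (H2bc13, H2bc15, H2bc18 and H2bc24) had reached 1 only in Input and were bound to differ downward. Of the other 5, 2 were lower, a count too small to tell from the 30.6% of all genes that were lower. H2bc18 (4.48 and 1.42 in Input) and H2bc15 (2.06 and 1.05) had a listed value of 0 in all 3 precipitates. The others were H2bc13 (log2 -1.30), H2bc24 (log2 -0.69), H2bc4 (log2 -0.61) and H2bc21 (log2 -0.30). H2bc12, H2bc23 and H2bc11 did not pass (log2 -1.24, -0.44 and -0.15). H2bc21 was almost level across all libraries, at 11.47 and 11.69 in Input, 9 and 9.47 in eIF4E and 11.29 in IgG. H2bc21, H2bc4 and H2bc23 are also the 3 tested members of the class with an annotated length over 1000 bp (2667, 8282 and 3788 bp). Their log2 values lay between -0.61 and -0.30, against a median of -1.82 for the 39 shorter ones, a split by length that was chosen after the values were seen. All 3 are H2B genes, so length cannot be told apart from family here. The shorter H2B genes H2bc11 and H2bc12 lay on either side of them (log2 -0.15 and -1.24). Members that reached 1 only in Input, such as H2bc15 and H2bc18, are also among the 39. The summed H2B ratio of eIF4E to Input was 0.521, above those of H1 (0.402), H4 (0.473), H2A (0.257) and H3 (0.158). Its order with H4 is not settled: without the highest member of each family, H4 stood at 0.667 and H2B at 0.566.

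**Figure D2:**
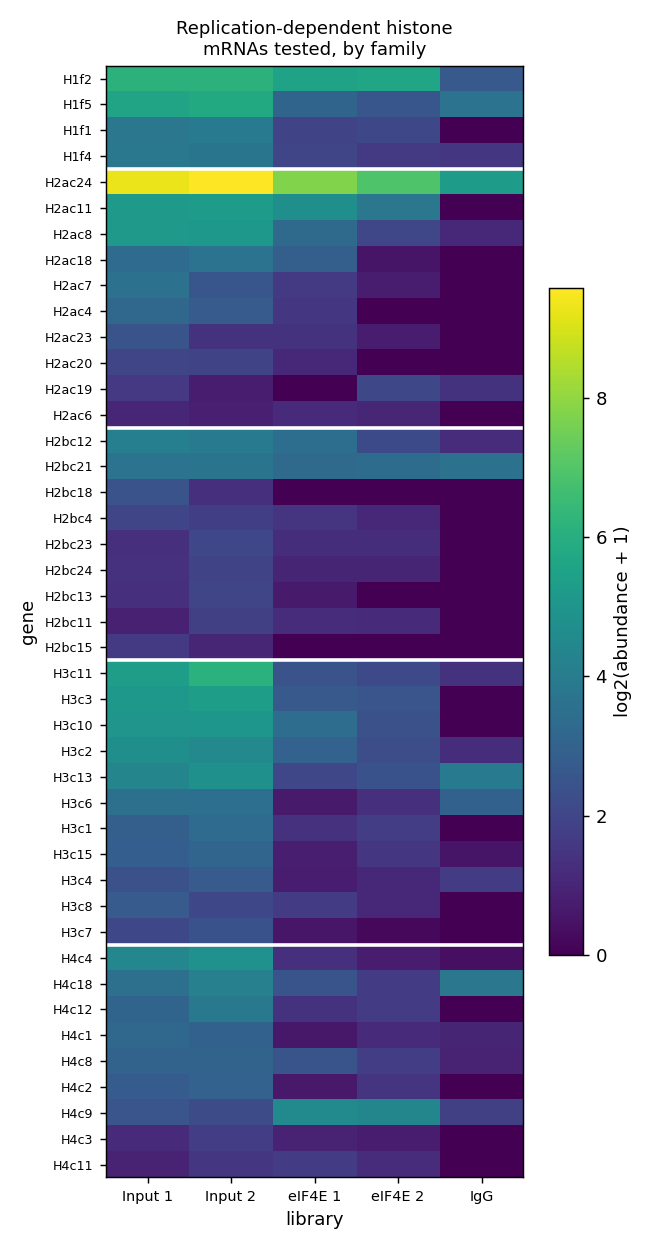
Heat map of log2(abundance + 1) for the 43 replication-dependent genes tested (rows, grouped as H1, H2A, H2B, H3 and H4 and ordered by Input level) in the 5 libraries (columns). The Input columns are brighter than the eIF4E columns for most rows, H4c9 being the clear exception, and 24 rows are at 0 in IgG.

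The eIF4E replicates were not equally low. Replication-dependent values summed to 432.09 in replicate 1 and 288.24 in replicate 2, and 29 of the 43 tested were lower in replicate 2 (67.4%, against 46.2% of all genes). The variants shared this, with 9 of the 11 tested lower in replicate 2 (81.8%). Both replication-dependent sums lay well under the Input sums of 1191.79 and 1374.86, a ratio of means of 0.281. Leaving out H2ac24 gave 214.56 and 167.39 against 557.75 and 613.89, a ratio of 0.326. With 2 libraries against 2, the smallest p that an exact two-sided permutation test of such a sum can give is 1 in 3, so none was run.

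Variant mRNAs stayed much closer to Input than replication-dependent ones, with a median log2 fold change of -0.31 over the 11 tested. Of these, 6 were lower (54.5%), 1 was higher (9.09%) and 4 did not pass. Over all genes tested, 30.6% were lower and 43.3% higher, so the variants too were lower more often. Both eIF4E libraries lay below both Input libraries for 8 of the 11, against 37.6% of all genes. The clear rise was in H3f3b (chromosome 11, 116021961 to 116026039), one of the H3.3 genes: 1229.8 and 1233.83 in Input, 2735.85 and 2695.51 in eIF4E and 913.72 in IgG. Both eIF4E libraries lay above Input, by 2.2-fold (log2 1.14, SE 0.03, adjusted p = 6.5e-05), and the gene moved from rank 76 among all genes in Input to rank 20 in eIF4E. H3f3a (chromosome 1, 180802560 to 180813605) encodes the same protein and did not pass: 1121.35 and 1122.35 in Input, 1063.71 and 983.28 in eIF4E and 328.57 in IgG (log2 -0.13, SE 0.05, adjusted p = 0.066). H3f3c, an H3.3-related gene of low level, had 16.14 and 24.51 in Input and 20.22 and 19.33 in eIF4E, with overlapping groups (log2 -0.01, adjusted p = 0.968).

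The deepest fall among the variants was in H1f0 (chromosome 15, 79028212 to 79030504), from 955.06 and 925 in Input to 422.63 and 422.18 in eIF4E, with 231.82 in IgG (log2 -1.15, SE 0.04, adjusted p = 7.3e-05). H2az1 (chromosome 3, 137864487 to 137866922) fell from 4144.08 and 4164.56 to 2834.67 and 2802.17, with 909.84 in IgG (log2 -0.56, SE 0.03, adjusted p = 1.9e-04). H2az2 had 1950.45 and 2060.5 in Input, 1949.01 and 1738.52 in eIF4E and 587.08 in IgG; one eIF4E library lay just below an Input library, and the difference did not pass (log2 -0.12, SE 0.07, adjusted p = 0.166). Thus of each pair of variant genes, those for H2A.Z and those for H3.3, one member passed and the other did not; the difference within a pair was not tested.

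MacroH2A, which carries a large extra domain and is linked to silent chromatin, was lower for both genes. Macroh2a2 had 341.84 and 327.56 in Input, 221.92 and 230.12 in eIF4E and 151.66 in IgG (log2 -0.56, SE 0.05, adjusted p = 4.9e-04). Macroh2a1 had 169.83 and 156.73, 132.49 and 130.74, and 80.68 (log2 -0.31, SE 0.06, adjusted p = 0.00699). H2ax fell from 760.26 and 766.56 to 601.71 and 607.1, with 206.8 in IgG (log2 -0.34, SE 0.04, adjusted p = 0.00109). In all these genes the eIF4E values lay between Input and IgG.

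The genes whose class is uncertain lie outside the large clusters. H2bu2 (chromosome 11, 58948911 to 58949372) had 831.4 and 886.25 in Input, 604.51 and 507.95 in eIF4E and 120.29 in IgG (log2 -0.63, SE 0.10, adjusted p = 0.0035). H2aw (58954685 to 58955192) had 35.14 and 30.56 in Input, 36.86 and 33.84 in eIF4E and 3.19 in IgG, with overlapping groups (log2 0.10, adjusted p = 0.369). H2bu2 lies within the lncRNA gene Gm51864 and H2aw within Trim17, and reads of overlapping genes cannot be told apart without strand. H4f16 was listed at no more than 0.26.

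**Figure D3:**
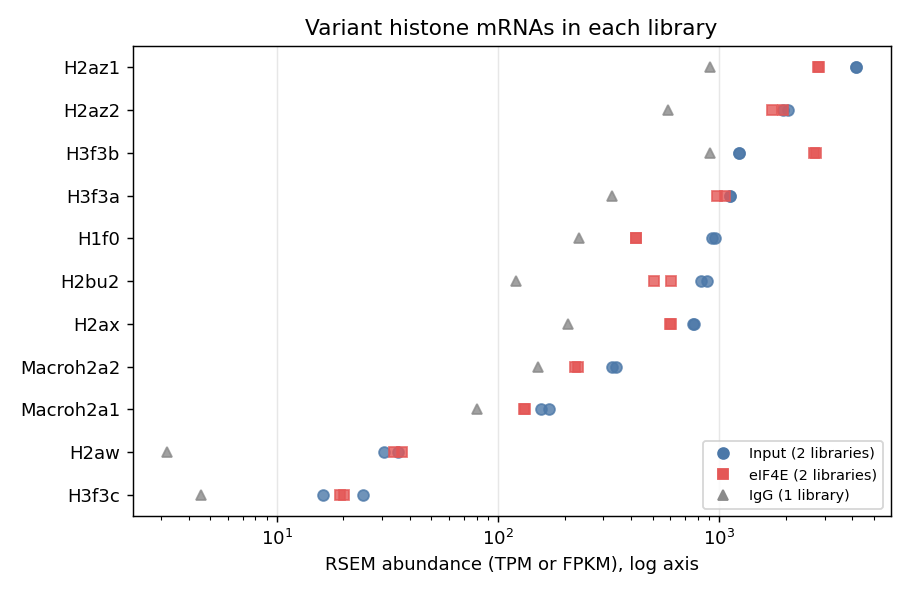
Abundance (TPM or FPKM, log axis) of the 11 variant genes tested, ordered by Input mean; each circle is an Input library, each square an eIF4E library and the triangle the IgG library. H3f3b is the gene whose eIF4E squares lie clearly to the right of Input, H1f0 has the widest gap to the left, and IgG is lowest for every gene.

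Scaling between libraries changed the split of the variants more than that of the replication-dependent class. The split of variants was 1 higher and 6 lower as deposited, 1 and 8 with median-of-ratios scaling, 2 and 4 with equal totals, and 3 and 3 with quantile normalization, where H2az2 and H3f3a were higher (log2 0.40 and 0.30). The replication-dependent split was 1 and 32, 1 and 35, 1 and 28, and 1 and 36 under the same settings. H3f3b and H4c9 were higher under each of them. The median of all genes moved from 0.16 to -0.11 with median-of-ratios scaling and 0.36 with equal totals; relative to it, the replication-dependent median lay at -1.90 and the variant median at -0.47 as deposited.

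**Figure D4:**
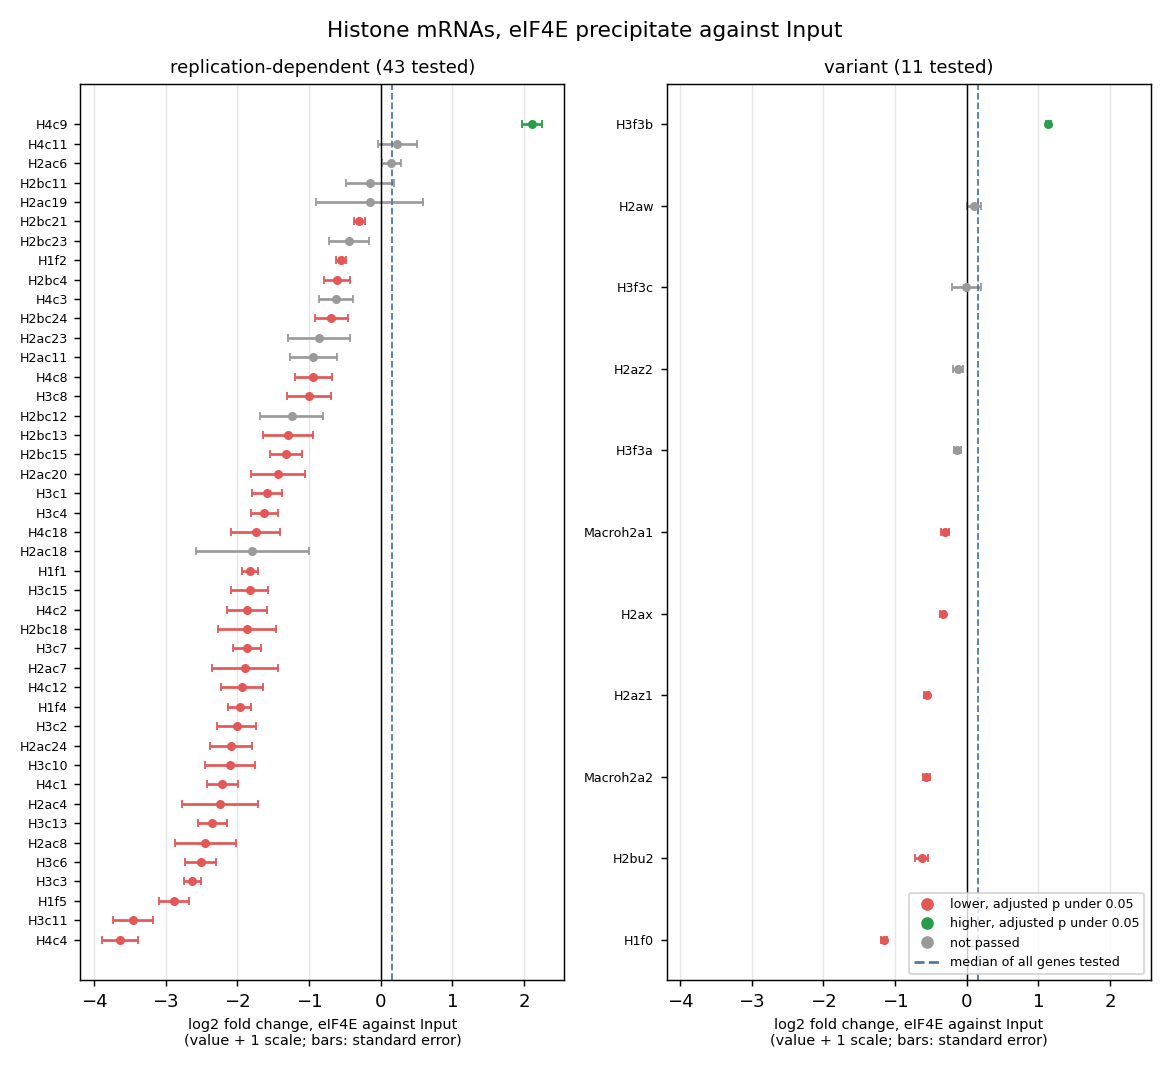
Log2 fold change of eIF4E against Input (value + 1 scale) with its standard error for each gene tested, 43 replication-dependent on the left and 11 variant on the right; red is lower and green higher at an adjusted p under 0.05, grey did not pass, and the dashed line is the median of all genes (0.16). Most replication-dependent genes lie left of -0.5, while the variants lie between -0.63 and 0.10 apart from H3f3b (1.14) and H1f0 (-1.15).

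Against IgG, the eIF4E values show how the make-up of the precipitates differed, not how much RNA each held. With 1 IgG library, its spread is taken from the other groups, and the eIF4E libraries are those of the comparison above. All 11 variants tested were higher in eIF4E, where 53.1% of all genes were higher and 30.6% lower. On the scale of value + 1 they ranged from Macroh2a2 at 1.49-fold and Macroh2a1 at 1.62-fold, through H1f0 at 1.82-fold and H2ax, H3f3b, H2az1, H3f3a and H2az2 at 2.91-fold to 3.13-fold, to H3f3c at 3.75-fold, H2bu2 at 4.58-fold and H2aw at 8.67-fold (limma adjusted p from 1.7e-05 to 0.00155). Their median log2 value was 1.63, against 0.55 for all genes.

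Of the 43 replication-dependent genes tested against IgG, 22 were higher (51.2%) and 6 lower (14%), with 15 not passing. Over all genes tested, 53.1% were higher and 30.6% lower, so the share of the class that was higher was close to that of all genes. Under quantile normalization 7 of the 43 were higher and 11 lower. IgG listed 24 of the 43 at exactly 0, against 20.8% of all genes tested, so no fold is given for those. Of the 19 above 0 in IgG, 7 were higher in eIF4E and 6 lower. H1f2 was 7.5-fold higher, H4c9 6.33-fold and H2ac24 4.17-fold (adjusted p = 2.2e-05, 1.6e-04 and 0.00455), and H2ac8, H2bc12, H3c2 and H4c8 were 2.26-fold to 3.04-fold higher. The 6 that were lower than IgG were H3c6 (10.48 and 10.37 in Input, 0.63 and 1.47 in eIF4E, 6.79 in IgG; log2 -1.96), H4c18 (log2 -1.70), H3c13 (log2 -1.67), H1f5 (log2 -0.82), H3c4 (log2 -0.74) and H2bc21 (log2 -0.26). H4c18 had 10.53 and 17.13 in Input, 4.66 and 2.29 in eIF4E and 12.99 in IgG, and H3c13 had 19.47 and 26.88, 3.16 and 4.29, and 13.91. IgG stood within the Input values for H4c18 and below them for H3c13 and H3c6, and eIF4E was below IgG in all 3.

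The control precipitate was itself set against Input, with the same Input libraries as above. Here 39 of 43 replication-dependent genes were lower and none higher, as were all 11 variants, where 50.3% of all genes were lower and 37.8% higher. Without the 6 that reached 1 only in Input, 33 of 37 replication-dependent genes were lower. The 4 that did not pass were H2ac19, H2bc21, H4c18 and H3c6. IgG libraries at 0 enter these fits as log2(0 + 1). The medians were -2.12 for replication-dependent and -1.88 for variant genes, against -0.43 for all genes. H2ac24 fell to 0.0563 and H1f2 to 0.091 of Input, H2az1 to 0.219 and H3f3b to 0.742.

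Genes that handle histone mRNAs and proteins were read beside the histones themselves. Of 27 listed genes for 3′ end formation, stem-loop binding and decay of histone mRNAs, 25 were tested, 13 were higher and 8 lower in eIF4E than in Input (52% and 32%, median log2 0.40), against 43.3% and 30.6% of all genes and a median of 0.16. Slbp, the stem-loop binding protein, had 191.97 and 185.46 in Input, 405.27 and 420.48 in eIF4E and 199.32 in IgG (2.18-fold, limma adjusted p = 9.3e-05). Casp8ap2, a scaffold of histone mRNA processing, rose from 1.21 and 0.79 to 26 and 22.65, with 21.17 in IgG (log2 3.67), and Npat, the activator of histone gene transcription, rose by log2 2.06. Tut7, which adds uridines to histone mRNAs during decay, rose by log2 2.12, and its IgG value of 50.02 was above eIF4E. Lsm4 of the decay ring (log2 -1.92), Sympk (log2 -1.09) and the endonuclease gene Cpsf3 (log2 -0.64) were lower.

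Of 37 histone chaperones and exchange factors, 22 were higher (59.5%) and 13 lower (35.1%), against the same 43.3% and 30.6% of all genes. Atrx (log2 4.54), Dek (log2 4.00) and Ncl (log2 2.32) rose most, the first with a higher value in IgG (520.61) than in eIF4E (103.47 and 114.74). For Dek and Ncl, IgG (116.94 and 142.8) lay below eIF4E but above Input (13.03 and 18.82 for Dek, 41.72 and 39.94 for Ncl). Ipo4, an importer of H3 and H4 (log2 -1.49), Znhit1 of the H2A.Z exchange complex (log2 -1.15) and Chaf1a, which places new H3 and H4 behind the replication fork (log2 -1.05), fell most. Other S-phase genes, whose mRNAs are polyadenylated, went both ways, 9 of 24 higher (37.5%) and 11 lower (45.8%), with a median log2 of -0.11. Ccne2 (log2 2.28), Pola1 (log2 1.83) and Slbp rose most and Mcm5, Tyms and Cdt1 fell most (log2 -0.96, -0.78 and -0.65). Among 17 listed RNAs known to lack a poly(A) tail, only Rn7s6 was tested; it had 28.97 and 20.79 in Input and was listed at 0 in both eIF4E libraries and in IgG. The listed RNAs had 12 entries, with Rmrp under more than one gene ID, and none of these apart from Rn7s6 reached a value of 1.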

How the data were processed

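Gene-level RNA abundances were measured by RNA immunoprecipitation and sequencing in 5 libraries, grouped by title into 2 eIF4E, 2 Input and 1 IgG library. Per the submitters' processing notes, the authors used STAR 2.7.9a and RSEM 1.3.3 with build mm10. The deposited values are linear, carry 2 decimals and are TPM or FPKM, which the header does not settle. The annotation version and any filter are not given in the sources read for this work. Of 50161 rows, 286 exact repeats were dropped.

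Values were transformed as log2(value + 1), a scale that understates changes of low genes. Genes with at least 1 in at least 2 of 5 libraries (12769) were fitted with limma 3.58.1 in R 4.3.3 on 3 groups (eBayes with an intensity trend). Tests were two-sided, p-values were adjusted over all 12769 genes by Benjamini and Hochberg, and the threshold was 0.05. The fit had 2 residual and 2.571 prior degrees of freedom. Sums used all members, unfiltered. Promoters and coordinates came by symbol from RefSeq tables of GRCm38.p6; promoters matched 72 of 82 symbols. Every tested member is named, and members are given by library where they were variants, among the 3 highest or lowest changes, or among the 3 highest in Input; a few others were added after their values were seen. From each gene list the 3 highest and 3 lowest changes past the threshold are named. Members and lists were chosen with earlier results of these data known. Alternatives covered scaling, pseudocount, filter, trend, replicates left out, a replicate block and the class of ambiguous symbols.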

Additional observations from a re-analysis of the deposited data

How the results depend on the processing

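Of 33 replication-dependent calls against Input, 21 kept their call and direction in every alternative run that tested them. So did 3 of 7 variant calls (H1f0, H3f3b and Macroh2a2). H2bc15, which is among the 21, was not tested with a filter on the mean over all libraries, and it had reached 1 only in Input. Leaving out 1 library ended these calls: H2ac20, H2ac4, H2ac7, H2ac8, H2bc21, H2bc4, H3c8 and H4c8 without Input replicate 1; H2ac20, H2ac4, H2bc13, H2bc21, H2bc24, H2bc4, H4c18 and H4c8 without Input replicate 2; H2bc18, H2bc21 and H2bc24 without eIF4E replicate 1; H2ac7, H2bc13, H2bc18, H2bc24, H2bc4 and H3c8 without eIF4E replicate 2. Leaving out each replicate in turn gave 25 to 32 replication-dependent genes lower and 1 higher than Input, and 6 to 8 variants lower and 1 higher; against IgG, 17 to 21 and 4 (replication-dependent, higher and lower), and 11 variants higher; for IgG against Input, 33 to 36 and 11 lower. A fit with the replicate number as a block, on the eIF4E and Input libraries, gave 34 replication-dependent genes lower and 1 higher, 6 variants lower and 1 higher, and 5401 genes higher and 3749 lower over all; same-numbered libraries shared only a number (r = 0.0236 between their deviations, across genes). The split of all genes against Input was 5535 higher and 3906 lower as deposited, 4417 and 5256 with median-of-ratios scaling, 6503 and 2748 with equal totals and 4297 and 5145 with quantile normalization. Counting H2aw, H2bu2 and H4f16 as replication-dependent, or leaving out H2ax, moved no count by over 1.5 times.

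Without a filter, 3 replication-dependent genes were higher than Input, and 14 were higher and 3 lower than IgG. With equal totals 2 variants were higher than Input, and 1 gene of each class was higher in IgG than in Input: H2bc21 (log2 0.51) and H3f3b (log2 0.16). Quantile normalization gave 3 variants higher and 3 lower than Input, 7 replication-dependent genes higher and 11 lower than IgG, and 1 variant, H3f3b (log2 0.67), higher in IgG than in Input. It turned H2ax (log2 0.10), H2az2 (0.40) and H3f3a (0.30) against Input and H2ac6 (0.039) in IgG against Input. Against IgG it turned H1f4 (log2 -0.87), H2ac6 (-0.28), H2bc11 (-0.16), H2bc15 (-0.95), H2bc23 (-0.11), H2bc24 (-0.36), H2bc4 (-0.0898), H3c15 (-0.95), H3c7 (-0.73), H4c2 (-0.28), H4c3 (-0.48), H4c4 (-0.98) and H4c8 (-0.26). The cause was not tested.

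Ratios of summed values, eIF4E to Input, moved with median-of-ratios scaling to 0.321 (H1), 0.126 (H3) and 0.377 (H4) for replication-dependent genes and to 0.714 (all), 0.359 (H1), 0.606 (H2A), 0.517 (H2B) and 1.26 (H3) for variants. With equal totals they moved to 0.476 for replication-dependent H1 and to 1.06 (all), 0.531 (H1), 0.897 (H2A), 0.765 (H2B) and 1.87 (H3) for variants. Without the highest member they were 0.155 (H1, without H1f2) and 0.667 (H4, without H4c4) for replication-dependent genes, and 1.01 (all), 0.503 (H1), 0.861 (H2A) and 0.913 (H3, without H3f3b) for variants. Depth is unknown, so what it limits in genes near a value of 1 cannot be given.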
